A study of Mus musculus with 90 samples.

Results

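The clustered protocadherins are neuronal cell adhesion proteins encoded by 3 neighbouring gene clusters, alpha, beta and gamma, on mouse chromosome 18. Members were all genes whose symbol begins with Pcdha, Pcdhb or Pcdhg followed by a cluster name, with symbols taken from GENCODE M21 on GRCm38. That annotation lists 58 such gene IDs, and 24 of them had a row among the 38561 gene IDs of the deposited tables. All 22 beta genes were present, with 1 of 14 alpha IDs and 1 of 22 gamma IDs. The other 13 alpha and 21 gamma IDs are not analysed here.

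Each alpha or gamma transcript joins 1 of many variable first exons, each with its own promoter, to constant exons shared by its cluster, which encode the intracellular part of the protein. Beta genes are single-exon genes and have no constant exons. A neuron switches on its own combination of variable promoters, through CTCF, cohesin and promoter methylation, and the extracellular domains bind only matching partners on other cells, which in mice serves self-recognition of dendrites and axons. The C-type members at the end of the alpha and gamma clusters are expressed more uniformly, and the gamma cluster supports interneuron survival in mice.

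RNA-seq was done on the striatum and the cortex of the right hemisphere of 45 C57BL6/J mice at 9 months of age, 1 library per tissue and mouse. The mice were wild type (WT) or homozygous for the Q175 knock-in, an expanded CAG repeat in Htt that models Huntington's disease and is present in every cell that expresses Htt. From 5 weeks of age every mouse took 1 oral dose a day of vehicle or of PF-02545920, which blocks PDE10A, a phosphodiesterase enriched in striatal neurons. Both tissues had the same arms. Vehicle was given to 9 WT and 7 Q175 mice, and PF-02545920 to Q175 mice only. The dose of 0.32 mg/kg was taken by 10 mice, that of 1.0 mg/kg by 10 more and the highest, 3.2 mg/kg, by 9. Each arm held 5 females, the rest being males, and a mouse is called here by its sex and its number in its arm, such as F1.

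Libraries held 30510374 to 44943841 estimated counts in the striatum and 37233807 to 45781479 in the cortex. All 15 medium spiny neuron markers (genes of the main neurons of the striatum) were higher in WT striatum than in WT cortex, and all 10 cortical excitatory neuron markers were lower. In the cortex, 3 libraries lay over 2 times the tissue median from their group, F1 and F4 at 1.0 mg/kg and M4 at 3.2 mg/kg, so cortical results are also given without them. Levels are CPM, counts scaled to the library total, for 1 gene across libraries, and FPKM, which divides by transcript length, between genes. Differences are log2 fold changes with standard error (SE), and a gene was called when the adjusted p of edgeR's quasi-likelihood test over all genes was under 0.05.

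The 2 IDs outside the beta cluster may not each be a single isoform. The alpha ID, ENSMUSG00000007440, lies at chr18:37005203-37187657 on the plus strand and is named Pcdha11 in GENCODE M21, which gives that symbol to another ID as well. It is called the alpha ID here. The gamma ID, ENSMUSG00000023036, is named Pcdhgc4, a C-type gamma member, and lies at chr18:37815079-37841873 on the plus strand. The transcript length that relates each library's count to its FPKM was nearly constant for the beta genes, with an SD under 0.5 bases over 90 libraries in 21 of 22. For the alpha ID it ran from 4864 to 5136 bases (SD 60.3) and for the gamma ID from 4723 to 4743 bases (SD 6.07), more than for any beta gene (at most 1.18, in Pcdhb1). Of all 50-base words in their longest GENCODE M21 transcripts, 60.1% of the alpha ID's and 41.6% of the gamma ID's also occur in other annotated transcripts. Their values may therefore hold reads of the shared constant exons and of members not analysed here.

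Beta genes lie between 37264938 (the start of Pcdhb1) and 37524479 (the end of Pcdhb22), all on the plus strand. Shared 50-base words made up at most 11.3% of a beta transcript, in Pcdhb21, with the exception of Pcdhb12 at 64.2%. For Pcdhb12, 62.9% of all its words occur in Gm37446, a gene annotated on the opposite strand there. The annotated spans of Pcdhb21 and Pcdhb22 share 455 bases. Single values of these 3 genes are uncertain for that reason. How the counting used strand or split shared reads is not stated in the labels or headers. These spans and shares are those of GENCODE M21, and the counts may rest on other gene models. The length relating count to FPKM equalled an M21 transcript in 3 of 22 beta genes, Pcdhb12 among them. For Pcdhb22 it was 3067 bases, where the longest M21 transcript has 6609, and for Pcdhb21 4662 bases, where it has 4705. All 24 members passed the expression filter in both tissues.

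In WT striatum the gamma ID had the highest level, 143 ± 4.48 FPKM (SD, n = 9), followed by the alpha ID at 20.7 ± 0.774 FPKM. The 22 beta genes summed to 44.3 ± 2.52 FPKM, and their median member stood at 1.75 FPKM. Pcdhb17 (4.55 ± 0.322 FPKM), Pcdhb9 (4.40 ± 0.253) and Pcdhb20 (4.26 ± 0.413) led the cluster and did not differ beyond their spread. Pcdhb1 was lowest at 0.142 ± 0.0441 FPKM, below Pcdhb4 (0.486 ± 0.0808) and Pcdhb2 (0.564 ± 0.167). In WT cortex the gamma ID stood at 134 ± 2.43 FPKM, the alpha ID at 32.8 ± 0.837 and the beta sum at 42.1 ± 1.84, and Pcdhb9 led the beta genes at 5.49 ± 0.315 FPKM. Position along the cluster went little with level: Spearman's rho between order and WT FPKM was 0.31 in striatum and 0.24 in cortex over the 22 beta genes, which share their libraries.

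**Figure D1:**
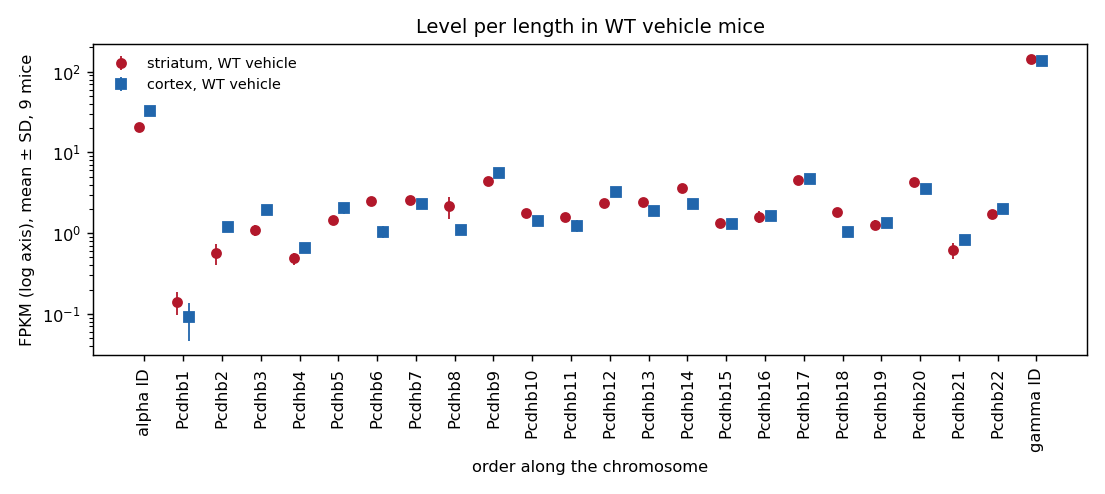
Level per length of the 24 members in WT vehicle mice, as mean FPKM on a log axis with SD over 9 mice, in chromosomal order; circles are striatum and squares cortex. The gamma ID stands highest (143 and 134 FPKM), then the alpha ID (20.7 and 32.8), and Pcdhb9 in cortex leads the beta genes at 5.49.

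The coefficient of variation of the beta genes other than Pcdhb1 between mice of an arm had a median of 10.9% over the striatal arms (3.02 to 31.5%) and 9.88% over the cortical arms (2.29 to 27.2%). The highest value, 31.5%, belonged to Pcdhb8 in WT striatum. Pcdhb1 was measured at 0.374 CPM in WT striatum and 0.231 CPM in WT cortex, where the counts are too few for a small difference to be detectable.

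The first comparison asked how the Q175 striatum differed from the WT striatum under vehicle. Beta protocadherins were higher in the Q175 striatum as a group, with Pcdhb2 at 2.83-fold, Pcdhb3 at 2.16-fold and Pcdhb21 at 2.08-fold of the WT level, while Pcdhb8 was at 0.57-fold. Of the 22 beta genes 16 rose, 1 fell and 5 were not called, against 45.1% of all 17315 tested genes called, 21.9% higher and 23.2% lower. The median beta log2 fold change was 0.50, and that of all genes was 0.00. The beta genes together went from 165 ± 9.44 CPM in WT mice (lowest 149.6, median 164, highest 176) to 232 ± 6.28 CPM in Q175 vehicle mice (lowest 223, median 231, highest 243). The lowest Q175 vehicle library thus stood above the highest WT library. Samples are bulk tissue, in which fewer cells of a type and less RNA per cell cannot be told apart.

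Pcdhb2 measured 0.890, 1.65 and 2.59 CPM (lowest, median, highest) in 9 WT striata and 3.81, 4.89 and 5.48 CPM in 7 Q175 vehicle striata. The groups did not overlap, and the log2 fold change was 1.50 ± 0.13 (adjusted p = 1.46e-13). Pcdhb3 went from 3.25, 4.59 and 5.43 CPM to 8.85, 9.74 and 10.4 CPM, again without overlap, with a log2 fold change of 1.11 ± 0.08 (adjusted p = 3.15e-16). Pcdhb21 stood at 2.44, 2.99 and 4.84 CPM in WT striata and at 5.43, 6.45 and 6.90 CPM in those of Q175 mice on vehicle (1.06 ± 0.09, adjusted p = 4.48e-13). Its highest WT value came from mouse M1, and the groups were separate all the same. Pcdhb4 went from 1.41, 2.07 and 2.35 CPM to 3.25, 3.70 and 4.20 CPM, with separate groups and a log2 fold change of 0.91 ± 0.13 (adjusted p = 1.13e-07).

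Among the more abundant members, Pcdhb9 went from 13.5, 14.3 and 15.5 CPM in WT to 24.0, 24.4 and 25.9 CPM in Q175 vehicle mice, a log2 fold change of 0.80 ± 0.05 (adjusted p = 1.33e-16). It was second in the cluster in WT striatum, with 9.95 ± 0.670% of the beta FPKM, and first in Q175 vehicle striatum, with 12.4 ± 0.291%. Pcdhb22 had the smallest adjusted p of the cluster, 4.23e-17, at 0.82 ± 0.05, with 4.94 to 6.29 CPM in WT striata and 9.44 to 11.1 CPM in the Q175 ones. Pcdhb12 went from 6.67, 7.61 and 8.43 CPM to 11.8, 13.5 and 14.2 CPM, and Pcdhb19 from 7.43, 9.65 and 11.7 CPM to 14.7, 16.8 and 17.6 CPM. Both were separate between the groups. Pcdhb16, at 7.43, 8.84 and 12.8 CPM in WT striata and 13.5, 14.5 and 15.5 CPM in Q175 ones, was separate as well, though its highest WT library came close. These 3 and the other 7 beta genes that rose had log2 fold changes from 0.21 (Pcdhb18) to 0.80 (Pcdhb12). Among them Pcdhb7 (0.26 ± 0.07, adjusted p = 0.00387) lost its call with a term for the L number of the library, a label of unstated meaning (adjusted p = 0.0537). The call of Pcdhb18 (adjusted p = 0.0333) was lost when any 1 of 6 mice was left out, namely F5 or M2 of the Q175 vehicle arm or F2, F5, M2 or M3 of the WT arm, and its log2 fold change ranged from 0.16 to 0.26 over the 16 removals. With females only Pcdhb18 was not called either (0.24 ± 0.11, adjusted p = 0.126).

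**Figure D2:**
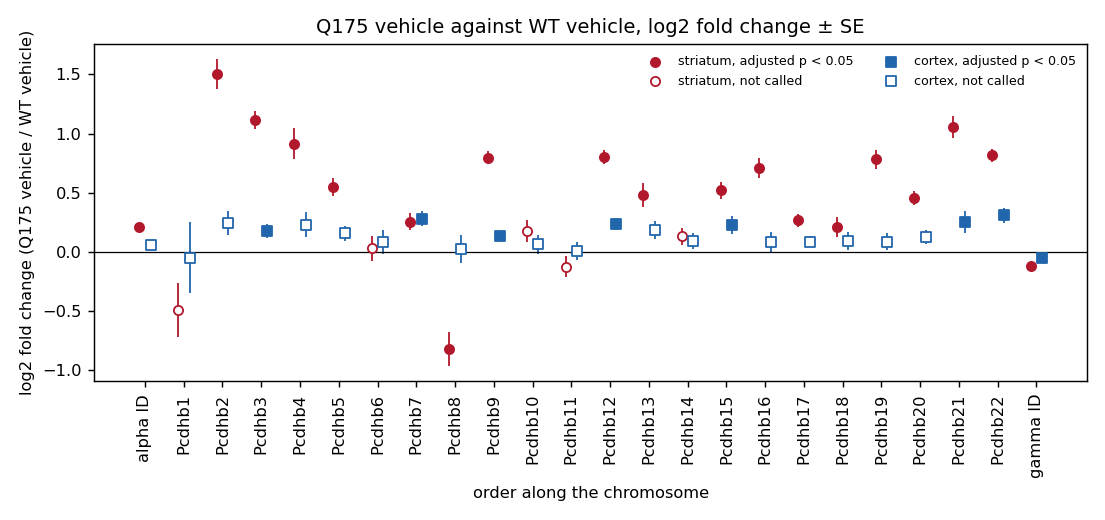
Log2 fold change of Q175 vehicle over WT vehicle with SE for the 24 members in chromosomal order, circles for striatum and squares for cortex; filled symbols had an adjusted p under 0.05. In striatum 16 of 22 beta genes lie above 0 and called, up to 1.50 for Pcdhb2, and Pcdhb8 lies at -0.82. The cortical values lie closer to 0 than the striatal ones, except those of Pcdhb6 and Pcdhb7.

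Pcdhb8 was the 1 beta gene that fell. It measured 3.64, 4.63 and 8.18 CPM (lowest, median, highest) in WT striatum and 2.63, 3.05 and 3.59 CPM in Q175 vehicle striatum. The groups did not overlap, though the lowest WT and highest Q175 libraries nearly met, and the log2 fold change was -0.82 ± 0.14 (adjusted p = 5.81e-06). Its share of the beta FPKM went from 4.82 ± 1.29% to 2.02 ± 0.242%. The beta genes on either side of Pcdhb8, Pcdhb7 (0.26 ± 0.07) and Pcdhb9 (0.80 ± 0.05), both rose. Pcdhb6, which lies beyond Pcdhb7, was not called, with 6.66 ± 0.761 CPM in WT striata against 7.12 ± 1.26 CPM in Q175 ones (0.03 ± 0.10, adjusted p = 0.846). The other beta genes that were not called were Pcdhb1 (-0.49 ± 0.23), Pcdhb10 (0.18 ± 0.09), Pcdhb11 (-0.12 ± 0.09) and Pcdhb14 (0.13 ± 0.07).

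In 14 of 22 beta genes every Q175 vehicle striatum lay above every WT striatum, a pattern seen in 6.19% of all tested genes, and in Pcdhb8 every one lay below (8.91% of all genes). The other 7 overlapped. Over all 4 Q175 arms, which share the WT mice, all 36 Q175 striata lay above all 9 WT striata for 7 beta genes (Pcdhb2, Pcdhb3, Pcdhb5, Pcdhb9, Pcdhb12, Pcdhb19 and Pcdhb22) and for the beta sum. That held for 2.28% of all tested genes, and the reverse, all 36 below, for 4.85% of them and no beta gene. For Pcdhb8, 31 of 36 lay below every WT library.

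The alpha ID measured 103, 111 and 117 CPM (lowest, median, highest) in WT striatum and 123, 128 and 136 CPM in Q175 vehicle striatum. These groups were separate, and the alpha ID rose by 0.21 ± 0.03 on the log2 scale (adjusted p = 3.93e-07). The gamma ID measured 691, 727 and 756 CPM in WT and 634, 651 and 706 CPM in Q175 vehicle striatum, and the groups overlapped. Its log2 fold change was -0.12 ± 0.03 (adjusted p = 0.00168). Differences between the 3 clusters were not tested, and 1 ID stands for each of alpha and gamma.

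The scale matters for the gamma ID. On the deposited FPKM the median of all genes was itself 0.11 higher in Q175 vehicle striatum, and 75.4% of the genes called by limma were called higher, compared with 48.5% on counts. The gamma ID was then -0.00 ± 0.03 (adjusted p = 1.000), which is -0.11 relative to that median. The alpha ID was 0.34 ± 0.03, or 0.23 relative to the median (adjusted p = 6.99e-11). On that scale 1 member was called lower, Pcdhb8. In cortex the share of calls that were higher went likewise from 46.0% to 67.0%, with the gamma ID at -0.00 ± 0.02 (adjusted p = 0.893), and for the difference between tissues from 45.9% to 71.4%.

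**Figure D3:**
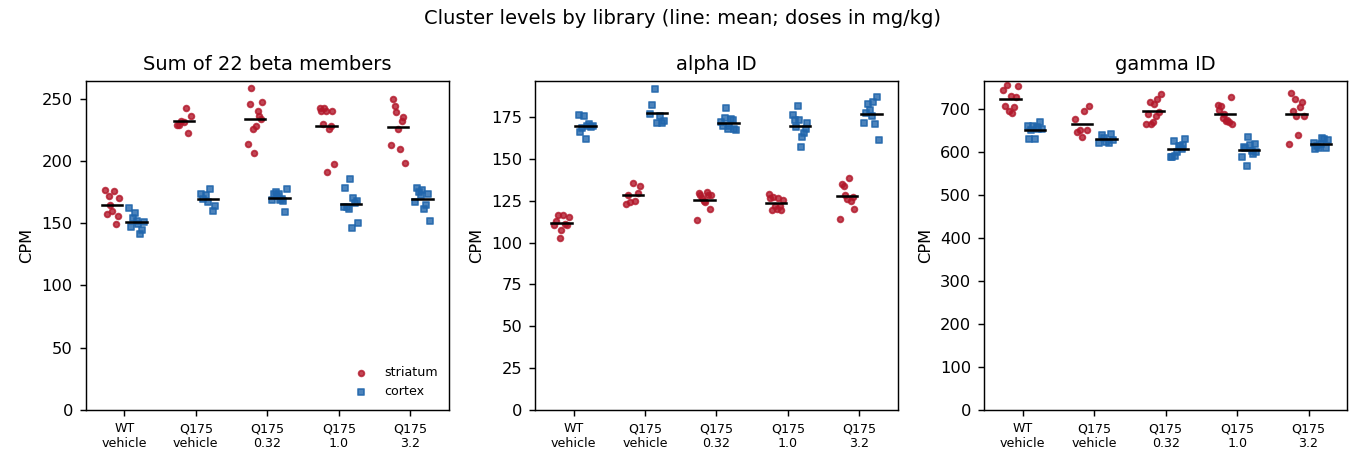
CPM of the beta sum, the alpha ID and the gamma ID in each library by arm (horizontal axis, doses in mg/kg); circles are striatum, squares cortex, lines group means. For the beta sum, all 36 Q175 striata lie above the highest WT striatum at 176 CPM.

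Cell type markers moved with the same comparison. In Q175 vehicle striatum 14 of 15 medium spiny neuron markers fell and none rose, and their summed level ran from 5253 to 6084 CPM, against 10027 to 13849 CPM in WT. Of the 10 general neuron markers 4 rose and 3 fell, with overlapping sums (5292 to 5925 CPM in WT mice, 5335 to 5890 CPM in Q175 vehicle mice). Of the 10 cortical excitatory neuron markers 1 rose and none fell (median log2 fold change -0.205). Their summed level ranged from 163 to 634 CPM in WT and from 187 to 476 CPM in Q175 vehicle striatum, inside the WT range. Of the astrocyte markers 2 of 10 rose and 7 fell, and of the microglia markers 4 of 9 rose and none fell. Of the other lists, cholinergic neuron markers fell in 4 of 4 tested cases, GABA interneuron markers in 4 of 8, oligodendrocyte markers in 5 of 10 and endothelial and pericyte markers in 2 of 9, with none rising, while 2 of 6 oligodendrocyte precursor markers rose. No choroid plexus marker of 6 was called, nor the 1 serotonergic marker tested. No marker tested was at 0 in a whole group, and the part of cell makeup in the protocadherin changes was not tested.

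The same comparison was made in cortex. The cortex showed a smaller rise of beta protocadherins and no fall. Of the 22 beta genes 7 rose (Pcdhb3, Pcdhb7, Pcdhb9, Pcdhb12, Pcdhb15, Pcdhb21 and Pcdhb22), none fell and 15 were not called, against 30.4% of all 17603 tested genes called, 14% higher and 16.4% lower. For none falling, the test was edgeR's, DESeq2 also called none lower, and 12 of 22 had an unadjusted p under 0.05, all of them above 0. The median beta log2 fold change was 0.13, with 21 of 22 above 0, and that of all genes was 0.00. The beta sum went from 151 ± 6.49 CPM (lowest 142, median 151, highest 162) to 169 ± 6.12 CPM (lowest 160.0, median 169.6, highest 178), so the groups overlapped slightly.

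Pcdhb22 had the largest log2 fold change of the beta genes in cortex, and the order that follows is that of the called genes. It measured 5.38, 6.26 and 6.86 CPM in WT cortex and 6.98, 7.86 and 8.27 CPM in Q175 vehicle cortex, and the log2 fold change was 0.31 ± 0.06 (adjusted p = 8.99e-05). It was the 1 of 22 beta genes with separate groups in cortex (4.92% of all genes), and in no beta gene did all Q175 vehicle libraries lie below the WT ones (6.77% of all genes). Pcdhb7 followed at 0.28 ± 0.06 (adjusted p = 5.81e-04, 8.20 ± 1.07 against 9.94 ± 0.827 CPM), then Pcdhb21 at 0.25 ± 0.10 (adjusted p = 0.0394) and Pcdhb12 at 0.24 ± 0.05 (adjusted p = 4.81e-04). Pcdhb21 lost its call when any 1 of 9 mice was left out (F1, F3 or F5 of the Q175 vehicle arm, or F1, F2, F3, F5, M3 or M4 of the WT arm), and its log2 fold change ranged from 0.20 to 0.30. Pcdhb15 (0.22 ± 0.08, adjusted p = 0.0232) lost its call without Q175 vehicle mouse F5 or WT mouse F4, with values from 0.20 to 0.26. With females only Pcdhb7 (adjusted p = 0.0659) and Pcdhb9 (adjusted p = 0.118) were not called. Without the sex term Pcdhb3 and Pcdhb21 were not (adjusted p = 0.0602 and 0.0604). A term for the L number of the library left 3 members called higher. Over all 17603 genes that term took the number called higher from 2463 to 1817. With it Pcdhb3 (adjusted p = 0.0533), Pcdhb9 (0.1075), Pcdhb15 (0.266) and Pcdhb21 (0.128) lost their calls. Pcdhb2, which led in striatum, stood at 3.42 ± 0.418 CPM in WT cortex, and 4.20 ± 0.566 CPM in the cortex of Q175 vehicle mice (0.24 ± 0.10, adjusted p = 0.0568), and Pcdhb8 at 2.65 ± 0.262 and 2.70 ± 0.416 CPM.

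The alpha ID stood at 170 ± 4.36 CPM in WT cortex and 178 ± 7.47 CPM in Q175 vehicle cortex (0.06 ± 0.03, adjusted p = 0.0986). The gamma ID went from 652 ± 13.4 to 629 ± 8.71 CPM, with overlapping groups and a log2 fold change of -0.05 ± 0.02 (adjusted p = 0.0357). That call was lost when any 1 of 10 mice was left out (F1, F3, F4, F5, M1 or M2 of the Q175 vehicle arm, or F1, F3, F4 or M3 of the WT arm), with values from -0.05 to -0.04. Without the 3 cortical libraries that lie far from their groups, 9 members were called higher, the alpha ID (adjusted p = 0.0379) and Pcdhb2 (adjusted p = 0.0285) being added, and 1 lower. The share of all genes called went up in that fit too, to 18.1% higher and 19% lower. Medium spiny neuron markers, which the cortex holds at a low level, fell in 14 of 15 cases here too (summed level 1330 to 1643 CPM in WT and, lower, 947 to 1131 CPM in Q175 vehicle mice), and 2 of 10 general neuron markers rose and 6 fell (7482 to 8305 CPM and 6906 to 7493 CPM in all). GABA interneuron markers fell in 7 of 8 cases (565 to 629 CPM in WT mice, 477 to 505 CPM in Q175 vehicle mice) and cortical excitatory neuron markers in 5 of 10 (2160 to 2383 CPM, then 1930 to 2196 CPM), with none rising. Of the astrocyte markers 1 of 10 rose and 7 fell (5121 to 5850 CPM, then 3878 to 4462 CPM), and of the oligodendrocyte markers 2 of 10 rose and 5 fell (4139 to 5383 CPM, then 3391 to 4123 CPM). Microglia markers rose in 3 of 9 cases and none fell (415 to 470.2 CPM, then 463 to 512 CPM). Of the other lists, 2 of 4 tested cholinergic neuron markers fell, 1 of 9 endothelial and pericyte markers, 1 of 6 oligodendrocyte precursor markers and the 1 serotonergic marker tested rose, and none of 6 choroid plexus markers was called. The part of cell makeup in the cortical changes was not tested.

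The difference between the tissues was tested with the mouse as a block. The genotype effect was more positive in striatum than in cortex for 13 of 22 beta genes, more negative for 1 and not called for 8, against 20.7% of all tested genes called, 9.5% of the 17455 in the positive direction and 11.2% in the negative. The median difference was 0.31 for the beta genes and 0.00 for all genes. Pcdhb2 had the largest difference, 1.23 ± 0.18 (adjusted p = 3.43e-05), followed by Pcdhb3 (0.93 ± 0.09), Pcdhb21 (0.82 ± 0.10) and Pcdhb19 (0.69 ± 0.09). Pcdhb9 had the smallest adjusted p, 1.27e-08, at 0.66 ± 0.05. Pcdhb8 differed by -0.78 ± 0.15 (adjusted p = 6.35e-04) and the alpha ID by 0.15 ± 0.04 (adjusted p = 0.0238), whereas the gamma ID was at -0.06 ± 0.04 (adjusted p = 0.248).

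**Figure D4:**
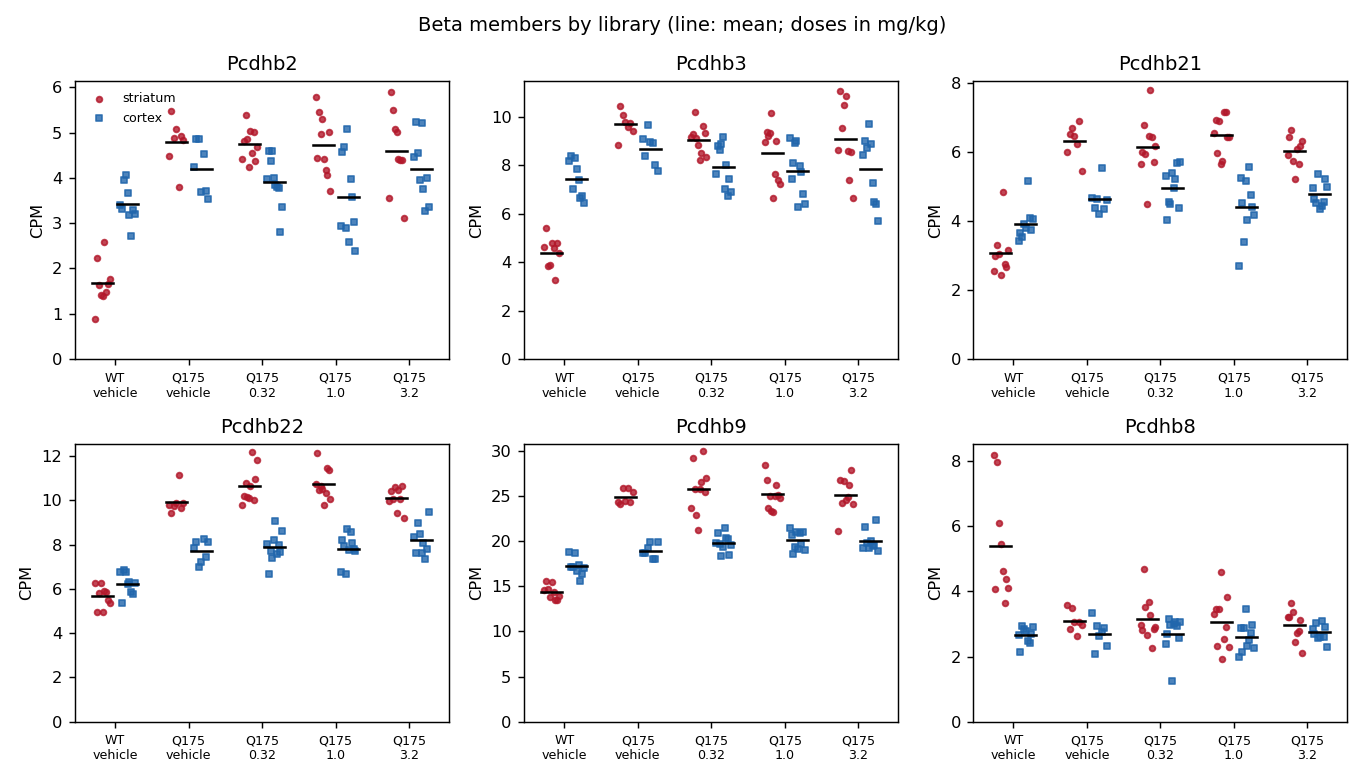
CPM of 6 beta genes in each library by arm (horizontal axis, doses in mg/kg); circles are striatum, squares cortex, lines group means. Pcdhb2, Pcdhb3, Pcdhb21, Pcdhb22 and Pcdhb9 were lower in WT striatum than in WT cortex and higher in every Q175 striatal arm than in WT striatum, and Pcdhb8 went the other way.

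The tissue pattern itself was compared within each genotype. In WT mice 10 of 22 beta genes were higher in striatum than in the cortex of the same mice, 8 were lower and 4 were not called. These counts are near those of all 16769 tested genes, of which 72.2% were called, 37.1% higher and 35.0% lower. Pcdhb6 (1.34 ± 0.07, adjusted p = 5.04e-10), Pcdhb8 (0.98 ± 0.11), Pcdhb18 (0.85 ± 0.06) and Pcdhb1 (0.71 ± 0.18) were the most striatal. Pcdhb2 (-1.05 ± 0.14, adjusted p = 9.65e-06), Pcdhb3 (-0.77 ± 0.07), Pcdhb12 and Pcdhb5 (both -0.42) were the most cortical. The alpha ID was lower in striatum by a log2 value of -0.61 ± 0.03 (adjusted p = 1.83e-10), and the gamma ID was higher by 0.14 ± 0.03 (adjusted p = 3.51e-04).

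In Q175 vehicle mice the same contrast called 19 of 22 beta genes higher in striatum, none lower and 3 not called (Pcdhb1, Pcdhb2 and Pcdhb5), against 73.5% of all 16841 tested genes called, 37.4% higher and 36.1% lower. For none lower, the test was edgeR's, and limma on FPKM also called no beta gene lower. The median beta difference was 0.37, where it had been 0.07 in WT mice. Pcdhb6 was at 1.30 ± 0.10, close to its WT value, and Pcdhb18 at 0.98 ± 0.04. Pcdhb2 stood at 0.18 ± 0.09 and Pcdhb3 at 0.16 ± 0.05, and Pcdhb8 at 0.20 ± 0.08. Without the mouse as a block edgeR did not call Pcdhb8 (adjusted p = 0.1041) or Pcdhb12 (adjusted p = 0.1035). Pcdhb12 also lost its call with other library scaling factors, RLE (adjusted p = 0.05065). The alpha ID remained lower in striatum (-0.47 ± 0.03) and the gamma ID higher (0.07 ± 0.03). These contrasts use the same libraries as the genotype comparisons, and the tests of the change between them are those of the genotype effect between tissues.

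**Figure D5:**
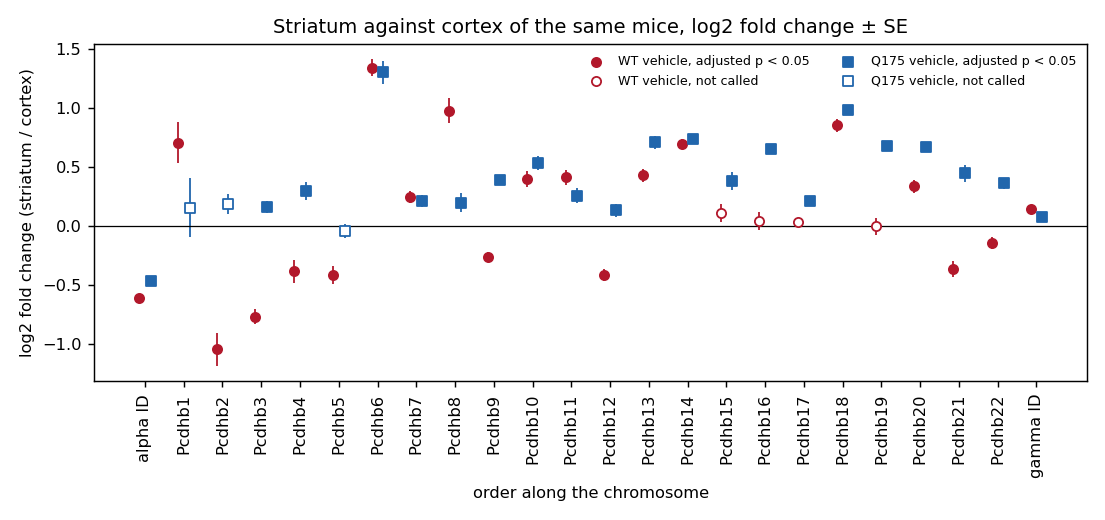
Log2 fold change of striatum over cortex of the same mice with SE, in chromosomal order; circles are WT vehicle and squares Q175 vehicle mice, filled where the adjusted p was under 0.05. In WT mice 8 beta genes lie below 0 and called, from Pcdhb2 at -1.05 to Pcdhb22 at -0.15, and in Q175 vehicle mice none does.

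Order along the chromosome had a Spearman's rho of 0.08 with the striatal genotype effect and 0.13 with the cortical one over 22 genes, and the sign of both changed with the processing. Pcdhb1 to Pcdhb11 had a median striatal genotype effect of 0.26, and Pcdhb12 to Pcdhb22 of 0.52, where each of the 11 genes lay above 0. Pcdhb2, Pcdhb3, Pcdhb4 and Pcdhb5, which follow each other, all rose, as did Pcdhb15 to Pcdhb22 without a gap, and the genes not called or lower lay at Pcdhb1, Pcdhb6, Pcdhb8, Pcdhb10, Pcdhb11 and Pcdhb14. In the tissue contrast of Q175 vehicle mice rho was 0.52, with a median of 0.21 for Pcdhb1 to Pcdhb11 and 0.65 for the rest, and in WT mice rho was 0.10. These values are descriptions of genes that share libraries. Position within the alpha and gamma clusters could not be described with 1 ID each.

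PF-02545920 was compared with vehicle in Q175 striatum. None of the 24 members was called at 0.32, 1.0 or 3.2 mg/kg against Q175 vehicle, where 2.49%, 1.07% and 1.48% of all genes were called (2.17%, 0.797% and 1.33% higher). The 3 contrasts share the 7 vehicle mice. By edgeR an unadjusted p under 0.05 was reached by 0, 2 and 0 members, the 2 being Pcdhb3 (-0.15 ± 0.07) and Pcdhb22 (0.12 ± 0.05), named after their values were seen, and DESeq2 called none. The beta sum stood at 234 ± 15.8, 228 ± 18.7 and 227 ± 17.2 CPM at the rising doses, beside 232 ± 6.28 CPM with vehicle and 165 ± 9.44 CPM in WT mice. For the 21 beta genes other than Pcdhb1, the 95% intervals of the log2 effect of 3.2 mg/kg lay between -0.31 and 0.35.

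Pcdhb2, with a genotype effect of 1.50, stood at 4.74 ± 0.357, 4.73 ± 0.673 and 4.60 ± 0.890 CPM at the 3 doses in striatum, compared with 4.78 ± 0.525 with vehicle and 1.68 ± 0.494 in WT mice. At 3.2 mg/kg its log2 effect was -0.05 with an interval from -0.28 to 0.18. Pcdhb9 was at 25.8 ± 2.68, 25.2 ± 1.62 and 25.1 ± 2.01 CPM, and its effect at 3.2 mg/kg was 0.01 with an interval from -0.09 to 0.11. Pcdhb8 was at 3.16 ± 0.676, 3.06 ± 0.819 and 2.96 ± 0.487 CPM. The alpha ID stood at 125 ± 5.18, 124 ± 3.57 and 128 ± 7.60 CPM. The gamma ID, at 695 ± 25.4, 689 ± 20.8 and 689 ± 38.4 CPM, lay between its Q175 vehicle mean of 666 and its WT mean of 723 CPM, and its dose effects of 0.06, 0.05 and 0.05 were not called.

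In cortex, no beta gene was called at any dose, where 10.2%, 20.7% and 0.0% of all genes were called at 0.32, 1.0 and 3.2 mg/kg (17.7%, 15.3% and 0.0114% without the 3 far libraries). By edgeR an unadjusted p under 0.05 was reached by 0, 1 and 1 beta genes, Pcdhb9 in both cases (0.09 ± 0.04 and 0.09 ± 0.04), and DESeq2 called none. Over all genes at 3.2 mg/kg, where edgeR called 0, 1307 had an unadjusted p under 0.05 and DESeq2 called 3. The beta sum stood at 170 ± 5.09, 165 ± 11.6 and 169 ± 8.64 CPM, beside 169 ± 6.12 CPM with vehicle. Pcdhb21 was lowest in mice F1 and F4 at 1.0 mg/kg, at 2.70 and 3.37 CPM, whose libraries are among the 3 that lie far from their groups.

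The gamma ID was the 1 member called in a dose comparison. It fell in cortex at 0.32 mg/kg (-0.05 ± 0.02, adjusted p = 0.0428) and at 1.0 mg/kg (-0.06 ± 0.02, adjusted p = 0.0157), with 4.98% and 9.8% of all genes called lower. Its cortical levels were 620, 628 and 642 CPM (lowest, median, highest) with vehicle, 607 ± 15.3 CPM at 0.32 mg/kg, 605 ± 18.7 CPM at 1.0 mg/kg and 619 ± 9.47 CPM at 3.2 mg/kg. All dosed groups overlapped the vehicle group. At 3.2 mg/kg the value was -0.03 ± 0.02 (adjusted p = 0.801). The call at 0.32 mg/kg was lost without the sex term (adjusted p = 0.0959), without a filter (adjusted p = 0.140) and with a term for the L number of the library (adjusted p = 0.170), and that at 1.0 mg/kg was lost without a filter (adjusted p = 0.0535) and with the L number (adjusted p = 0.0715). Without the 3 far libraries the values were -0.06 ± 0.02 (adjusted p = 0.0113) and -0.05 ± 0.02 (adjusted p = 0.0452), with 9.26% and 7.8% of all genes called lower, and the alpha ID was then called lower at 1.0 mg/kg as well (-0.08 ± 0.02, adjusted p = 0.027).

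The length implied by count and FPKM of the alpha and gamma IDs was compared between groups, a comparison chosen after the data were seen. The alpha ID's was 5024 ± 39.0 bases in WT striatum and 4970 ± 28.8 bases in Q175 vehicle striatum (two-sided exact permutation p = 0.00997, 0.0781 after adjustment over 20 such tests). The gamma ID's was shorter in striatum than in cortex in 9 of 9 WT mice (4726 ± 0.781 and 4738 ± 1.55 bases) and in 7 of 7 Q175 vehicle mice. The alpha ID's was shorter in striatum in 7 of 9 WT and in 7 of 7 Q175 vehicle mice. For the gamma ID the exact paired permutation tests gave p = 0.00391 and 0.0156, the smallest their sizes allow, and 0.0781 adjusted. None of the 20 tests passed the adjustment, and for the paired gamma tests, already at their smallest p, that does not show equal lengths. Over all arms the gamma ID's length was at most 4731 bases in striatum and at least 4734 bases in cortex. The tissues were tested against each other in the vehicle arms only.

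A list of 27 genes taken as regulators of the clusters was examined next, and their action on the cluster promoters was not tested. Of these genes 10 rose and 4 fell in Q175 vehicle striatum (median 0.06), and 8 rose and 1 fell in cortex (median 0.05). For these and the lists that follow, the shares of all tested genes are 21.9% higher and 23.2% lower in striatum and 14% higher and 16.4% lower in cortex. In striatum Dnmt3a, a de novo DNA methyltransferase, fell by 0.30 on the log2 scale (adjusted p = 3.96e-10). Wiz, a zinc finger partner of G9a and CTCF, rose by 0.33 in striatum (45.6 ± 4.36 against 57.7 ± 2.68 CPM, adjusted p = 2.26e-06) and by 0.32 in cortex (57.3 ± 1.86 against 71.5 ± 2.96 CPM, adjusted p = 5.52e-12). Tet1 (0.27) and Tet2 (0.32), which oxidise methylated cytosine, rose in striatum, as did Stag2 (0.23), a cohesin subunit, and Rest (0.36), a silencer of neuronal genes. In cortex Ehmt2 (0.15), which encodes G9a, Rad21 (0.09) and Stag2 (0.11), both cohesin subunits, and Ehmt1 (0.10), the partner of Ehmt2, rose, and Tet3 fell by 0.21. Setdb1, a histone methyltransferase that represses this locus in mouse neurons and is named after its value was seen, fell by 0.16 in striatum (adjusted p = 0.00701), and Ctcf itself was at -0.04 ± 0.03 (adjusted p = 0.412).

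Non-clustered protocadherins and related cadherins lie outside the 3 clusters. Of 20 tested in striatum 9 rose and 2 fell (median 0.19), and of 21 tested in cortex 4 rose and 1 fell (median 0.09). In cortex the rises were near the share of all genes (14%), and the falls were below it (16.4%). Pcdh20 rose from 6.71 ± 1.23 to 19.5 ± 1.49 CPM in striatum (1.54 ± 0.10, adjusted p = 1.31e-17), and Pcdh19, mutated in a human epilepsy, from 11.9 ± 1.99 to 27.0 ± 2.92 CPM (1.19 ± 0.08, adjusted p = 4.33e-16). Pcdh11x rose in striatum (0.65 ± 0.06) and in cortex (0.47 ± 0.06, adjusted p = 2.18e-08). Fat1, a giant cadherin, rose by 0.72 and Pcdh10 by 0.39 in striatum, while Cdhr1, a cadherin of photoreceptors, fell by 0.91. In cortex Pcdh10 (0.16), Pcdh17 (0.20) and Pcdh19 (0.19) also rose, and Fat3 fell by 0.26.

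Of 22 genes for proteins that bind or act below the clustered protocadherins, 4 rose and 10 fell in striatum (median -0.02), and 3 rose and 7 fell in cortex (median -0.04). Brk1 (-0.35), Cyfip2 (-0.35) and Abi1 (-0.40), subunits of the WAVE actin regulatory complex, fell in striatum, as did the kinases Ptk2b (-0.47) and Prkcb (-0.60). Marcks, an actin-binding substrate of protein kinase C, rose by 0.30 in striatum and by 0.47 in cortex. In cortex Ptk2b (-0.21), Prkca (-0.33), Brk1 (-0.18) and Prkcb (-0.31) fell, and Fyn (0.13), a Src family kinase, rose.

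Among the nearest expressed genes on each side of the clusters and the other genes between them, 4 of 24 rose and 4 fell in striatum (median -0.04), and 7 of 25 rose and 2 fell in cortex (median 0.00). In striatum neither count exceeds the share of all genes (21.9% and 23.2%). Hars, a histidyl-tRNA synthetase gene, rose by 0.24 in striatum (adjusted p = 3.50e-11) and by 0.16 in cortex. Fchsd1 rose by 0.30 and 0.29, and Rell2 by 0.17 in striatum. In striatum Tmco6 fell by 0.34, and Zmat2 fell by 0.18 there and by 0.12 in cortex. Dnd1, a germ cell RNA-binding protein gene, fell by 0.75 in striatum. In cortex Dele1 (0.12) and Ik (0.09) rose, as did Gm26672, which lies on the opposite strand within the gamma cluster (0.31, adjusted p = 7.30e-05), and with strand use not given its reads and those of gamma transcripts may not be separable.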

How the data were processed

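The authors deposited estimated counts (expected counts) and FPKM per gene ID and library. CASAVA 1.8.2 is named in the submitters' processing notes, without its role. No label or header names the aligner, quantifier, genome build, annotation or strandedness (not given in the sources used). Of the deposited counts 81.5% were whole within 1e-06 (35.3% of member values), and all were rounded. Names and coordinates came from GENCODE M21 (GRCm38), matched on Ensembl ID, which named 36639 IDs.

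Each tissue was fitted in 1 edgeR (4.0.16, R 4.3.3) quasi-likelihood model of 45 libraries with TMM factors, filterByExpr and terms for arm and sex. P-values were adjusted by Benjamini-Hochberg over all genes and called under 0.05. Tissue contrasts used the mouse as a block, since the labels' animal numbers tie both tissues (their deviations correlated with a median r of 0.191, lowest 0.0909, over 45 mice). CPM used 1 TMM scaling of 90 libraries. Alternatives were DESeq2 (1.42.0), limma (3.58.1) on log2(FPKM + 0.1) and log2(FPKM + 1), other factors, filters, terms and sample sets, and leaving out each vehicle mouse. Implied length was 1000 times the count, over FPKM times the library total (in units of 1e+06). Its exact tests (scipy), and the fit without 3 cortical libraries, were added after the data were seen. The edgeR script was tested on simulated data. Over 366 pairs of libraries of 1 arm and tissue, counts differed by more than sampling noise in each (chi-square over degrees of freedom at least 3.56). Intervals cover the spread between mice, each library being 1 mouse.

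Members and lists were chosen with earlier results of these data known. Named are, per genotype or tissue contrast, up to 4 called members with the largest rise and fall in each cluster and every C-type member, called members for doses, and up to 6 called genes per other list by adjusted p. The other members described were chosen after their values were seen. These were Pcdhb7, Pcdhb9, Pcdhb12, Pcdhb16, Pcdhb18, Pcdhb19 and Pcdhb22 in striatum, and Pcdhb2, Pcdhb3, Pcdhb8, Pcdhb9 and Pcdhb15 in cortex. The same holds for all beta genes under dosing and for those not called.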

Additional observations from a re-analysis of the deposited data

Results flagged for a closer look

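Single libraries that lay far from the rest of their group, by the gap to the nearest other library over the group's range, were found in 18 of 250 groups (24 members and the beta sum, in 2 tissues and 5 arms). Chance flags about 1 in 20 groups. In WT striatum these were Pcdhb1 in F3 (0.644 CPM), Pcdhb16 in M1 (12.8 CPM), Pcdhb20 in F1 (18.6 CPM) and Pcdhb21 in M1 (4.84 CPM). In Q175 vehicle striatum they were Pcdhb19 in M1 (14.7 CPM) and Pcdhb22 in F5 (11.1 CPM), and at 3.2 mg/kg Pcdhb17 in M4 (15.3 CPM). In cortex, WT mouse M1 stood apart for Pcdhb21 (5.15 CPM), Q175 vehicle mouse F5 for Pcdhb17 (18.3 CPM) and Pcdhb21 (5.53 CPM), and Q175 vehicle mouse M2 for Pcdhb4 (2.19 CPM). At 0.32 mg/kg the cortical cases were the alpha ID (Pcdha11) in F4 (181 CPM), Pcdhb11 in F2 (6.33 CPM), Pcdhb15 in F4 (5.45 CPM) and Pcdhb8 in F5 (1.26 CPM). At 1.0 mg/kg the case was Pcdhb7 in M3 (11.2 CPM), and at 3.2 mg/kg Pcdhb12 in M2 (11.2 CPM) and Pcdhb17 in M4 (13.1 CPM).

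The genotype effect differed between striatum and cortex, by the interaction test with the mouse as a block, for 15 members. The log2 difference, striatum minus cortex, was 1.23 for Pcdhb2, 0.93 for Pcdhb3, 0.82 for Pcdhb21, 0.69 for Pcdhb19, 0.68 for Pcdhb4, 0.66 for Pcdhb9, 0.61 for Pcdhb16 and 0.56 for Pcdhb12. It was 0.51 for Pcdhb22, 0.38 for Pcdhb5, 0.34 for Pcdhb20, 0.28 for Pcdhb13, 0.19 for Pcdhb17 and 0.15 for the alpha ID. It was -0.78 for Pcdhb8.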

How the results depend on the processing

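Of the values that summarise a comparison under an alternative, 218 stayed close to the main count or within a set band around the main value. The other 21 moved. For the rank correlation with position that band was an interval over 22 genes, which share libraries. It is wide enough that the sign changes given below count among the 218. So do dose counts of 0 members under both settings, where no call could be lost. No called member changed direction. The rank correlation with position, which is untested, changed sign for the striatal genotype effect (0.08 to -0.05) and its difference between tissues (0.10 to -0.02) with the CPM filter, and for the cortical effect (0.13 to -0.01) without the sex term. For single members and the beta medians, 946 values kept their side of the threshold or, for a median, stayed within the spread of WT mice. For members, 41 gained a call and 29 lost one. A member called in neither fit was counted as kept even where its sign changed. These counts leave out the removals of 1 mouse. In striatum the members called lower in Q175 mice went from 2 to 1 on either FPKM scale, and the log2 ratio of the beta sum was 0.58 on FPKM against 0.49 on CPM. In cortex the members called higher went from 7 to 14 on either FPKM scale, to 3 with a term for the L number (a label of unstated meaning), to 11 with upper-quartile factors and to 12 with the vehicle arms only. Over all 17603 genes tested in cortex, 2463 were called higher in the main fit, 4075 on log2(FPKM + 0.1) and 4067 on log2(FPKM + 1). With the L number 1817 were, with upper-quartile factors 2872, and with the vehicle arms only 3257 of 17019. The 1 member called lower in cortex, the gamma ID, went to 0 with females only, on either FPKM scale, without a filter, with the L number and with upper-quartile factors. Its dose call at 0.32 mg/kg went to 0 without a filter, without the sex term, with the replicate block (adjusted p = 0.0728) and with the L number, and at 1.0 mg/kg to 0 without a filter and with the L number. At 1.0 mg/kg 2 members were called lower without the 3 far cortical libraries. The causes were not tested. Leaving out 1 vehicle mouse at a time gave 16 to 18 members higher and 2 to 3 lower in striatum, 5 to 9 higher and 0 to 1 lower in cortex, and a rho with position of 0.04 to 0.11 in striatum and -0.10 to 0.17 in cortex. Mice of 2 arms with the same replicate number and sex had deviations with a median r of 0.0952 in striatum (lowest -0.154) and 0.0871 in cortex (lowest -0.0417). No r of unmatched mice was computed, so whether these numbers pair the mice was not tested. The replicate block changed no other count of members called. Depth limits Pcdhb1, with a mean of 11.3 counts per striatal library.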
